A study of Mus musculus with 5 samples.

Results

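Lcn2, Havcr1, Clu, Cryab, Timp2, Igfbp7 and Cst3 are 7 genes whose proteins are measured in urine, blood or kidney tissue as markers of kidney injury, and they were taken by symbol from the 28692 gene rows of the droplet matrices of a mouse kidney study. The question was which segments of the nephron carried each of them before, during and after a blockage of the ureter. None of the 7 chose the cells: none is in a marker list, and all were left out of the clustering.

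The study took kidneys from C57/BL6 mice aged 8 weeks, with no allele or transgene named in the labels. It made 1 droplet library at each of 4 points, every one pooled from 3 mice: sham surgery, which the labels also call day 0; day 2 and day 7 of unilateral ureteral obstruction (UUO), in which 1 ureter is tied so that urine backs up into its kidney; and reversed UUO, taken 7 days after the blockage was undone, on experimental day 14. No sham library of day 14 was analysed here. Another sample, 768 wells in plates with all time points mixed, was not used here. Digestion on ice and a sort on DAPI, a dye that enters dead cells, came before the droplets, so every level is a level among cells that survived both steps. With 1 library a point there is no replicate: no p-value is given, and every interval is a 95% interval of counting error alone, which leaves out the spread between mice and between libraries. Fewer cells of a kind and less RNA per cell are kept apart below by giving levels within a gated segment beside the number of its cells.

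Each kept cell was assigned to a segment by marker genes, and 7104 of 13332 kept cells were tubule cells. From sham through days 2 and 7 to reversal they numbered 3410, 1222, 823 and 1649, which was 91.0%, 56.6%, 19.2% and 52.5% of the kept cells. Some gate markers kept high levels in every library and others did not, and since the markers chose the cells, their levels only describe the gate. Slc34a1, the phosphate transporter of the proximal tubule, stood at 3068, 1565, 1392 and 2682 CPM (counts-per-million, a gene's UMIs scaled to all UMIs of the gated class, a UMI being 1 counted RNA molecule) in proximal tubule cells, in the order sham, day 2, day 7 and reversed. Umod, the uromodulin gene of the thick ascending limb, stood at 10310 CPM or more in the thick ascending limb of all 4 libraries. Aqp2, the water channel of principal cells, was below its sham level of 8800 CPM in the later libraries, at 4958, 1960 and 3754 CPM. Pvalb, a marker of the distal convoluted tubule, was almost gone there on days 2 and 7 (4.97 and 1.35 CPM beside 1022 in sham and 246 after reversal). The gate then rested on the other markers of its list, among them Slc12a3, which stood at 1542 and 1158 CPM. Connecting tubule cells were the least separate, since a second segment lay close behind in 16 of 32, 12 of 17, 17 of 62 and 18 of 40 of them. Depth differed between the libraries, with medians of 2686, 6108, 7074 and 5079 UMIs per tubule cell, and so did the mitochondrial share, with medians of 34.8%, 20.9%, 11.6% and 27.9% of the UMIs of tubule cells. Shares at equal depth, and levels with a stricter mitochondrial limit or without mitochondrial UMIs, are given below. Depth and mitochondrial share were not tested as causes.

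The 7 proteins have varied functions. Lcn2 encodes lipocalin-2 (NGAL), a secreted protein that binds the iron carriers of bacteria and is filtered and taken back by proximal tubule cells. Havcr1 encodes KIM-1, a membrane receptor for phosphatidylserine that lets injured proximal tubule cells engulf dying neighbours and whose outer part is shed into urine. Clu encodes clusterin, a secreted chaperone, and Cryab encodes alpha-B crystallin, a small heat-shock protein. Timp2, an inhibitor of matrix metalloproteinases, and Igfbp7, a secreted binder of insulin-like growth factors, are measured together in urine as markers of cell cycle arrest, and Cst3 encodes cystatin C, an inhibitor of cysteine proteases used in blood as a measure of filtration.

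All 7 are protein-coding genes on GRCm38: Lcn2 (chr2:32384633-32388252) and Cst3 (chr2:148871722-148875692) on the minus strand of chromosome 2, Igfbp7 (chr5:77349240-77408041) on the minus strand, Cryab (chr9:50751325-50756636) on the plus strand, Havcr1 (chr11:46735080-46779578) on the plus and Timp2 (chr11:118301069-118355740) on the minus strand of chromosome 11, and Clu (chr14:65968483-65981547) on the plus strand. Cryab lies beside and partly over Hspb2 on the opposite strand, and whether counting used the strand is not given in the sources used here, so reads of the overlap could belong to either gene. The 250 bases before the RefSeq start are shown for 3 genes with different patterns: Lcn2, with its large distal change, Havcr1, with its proximal change, and Igfbp7, which stayed within 2-fold over the tubule. Capitals mark the letters GGGCGG on either strand, which is the core of a GC box. Sequences are RefSeq's on GRCm38.p6, written along the gene's own strand, at chr2:32387740-32387989 (Lcn2, minus), chr11:46739973-46740222 (Havcr1, plus, the most upstream of 3 starts) and chr5:77408046-77408295 (Igfbp7, minus).
Lcn2: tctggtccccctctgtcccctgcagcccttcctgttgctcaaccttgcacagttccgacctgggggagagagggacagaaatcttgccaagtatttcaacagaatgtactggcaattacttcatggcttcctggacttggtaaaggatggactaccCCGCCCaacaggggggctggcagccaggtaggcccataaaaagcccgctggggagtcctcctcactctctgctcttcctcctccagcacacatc
Havcr1: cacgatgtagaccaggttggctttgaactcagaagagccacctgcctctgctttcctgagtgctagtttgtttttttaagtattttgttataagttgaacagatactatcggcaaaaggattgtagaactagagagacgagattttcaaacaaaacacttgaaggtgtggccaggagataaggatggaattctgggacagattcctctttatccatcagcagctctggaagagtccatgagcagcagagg
Igfbp7: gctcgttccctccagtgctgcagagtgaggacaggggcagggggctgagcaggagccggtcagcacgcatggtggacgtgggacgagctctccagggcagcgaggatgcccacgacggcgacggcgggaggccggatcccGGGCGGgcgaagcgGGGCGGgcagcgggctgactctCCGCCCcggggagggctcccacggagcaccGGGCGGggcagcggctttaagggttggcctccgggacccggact
The motif occurs once before Lcn2, Cst3 and Timp2, 4 times before Igfbp7 and in none of the 3 windows of Havcr1, beside 32.7% of 32851 mouse windows of that length that hold it. The GC content was 56.4% before Lcn2, 43.2% before Havcr1 and 74.0% before Igfbp7, around a median of 52.4% over all windows. A match is a description of the letters alone. RefSeq windows were matched for 5 of the 7 genes, not for Clu and Cryab.

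Over all tubule cells together, 6 of the 7 genes were at least 2-fold higher on day 2 than in sham, where 19.1% of 8263 tested genes were, and none was 2-fold lower, beside 4.91%. TMM factors, which end the calls of Timp2 and Cst3, left 4. Their median log2 ratio was 1.81, beside 0.47 over all tested genes (both as the log2 ratio of CPM + 1). Igfbp7 was the exception, at a log2 ratio of -0.15 (-0.19 to -0.12). From day 2 to day 7 Timp2 alone was at least 2-fold higher, at 1.02 (0.70 to 1.35) beside 5.9% of genes, a call that TMM factors end, and no member was lower by that much, beside 1.13%. After reversal 3 members were at least 2-fold lower than on day 7, Lcn2, Havcr1 and Clu, beside 5.91% of all genes, and none was higher, beside 4.43%. The return was incomplete: against sham, 4 of the 6 members that passed the filter on low counts were still at least 2-fold higher (Lcn2, Clu, Timp2 and, neither with TMM factors nor without mitochondrial UMIs, Cst3, beside 15.9% of genes), and none was lower, beside 0.406%. Day 2 and reversed share the sham library, and the day 7 library enters both later comparisons.

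The level of all genes moved too, so part of each ratio is shared. TMM factors scale the summed UMIs of each class and library so that most genes match. With them the median over all tested genes was -0.11 on day 2 against sham in place of 0.47. Of the members 4 then passed 2-fold, since Timp2 and Cst3 did not. Cells with at most 20% mitochondrial UMIs alone left 3 members higher, and the ratios of Cryab (-0.54) and Timp2 (-0.59) then turned below 0. Lcn2, Havcr1 and Clu passed under both. The All-tubule ratios also mix segments whose shares changed, from 3040 proximal cells among 3410 tubule cells in sham to 221 among 823 on day 7, so the segments are given one by one below.

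**Figure D1:**
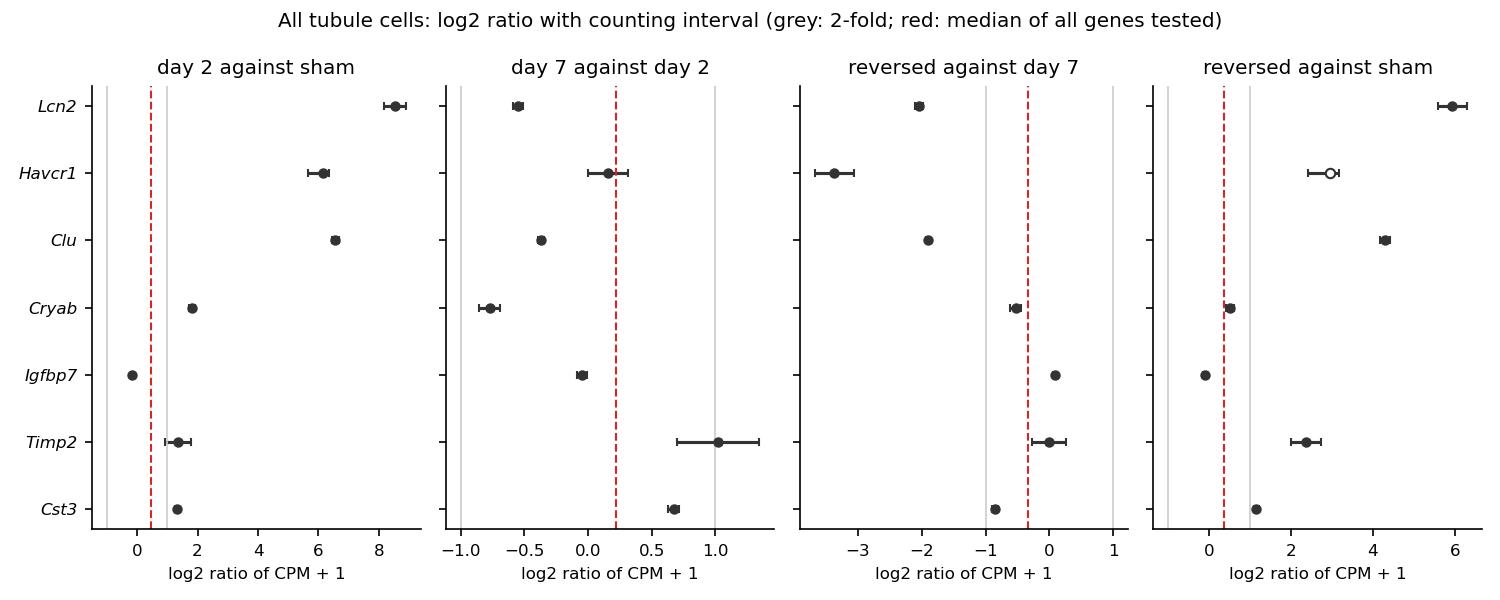
Log2 ratio of CPM + 1 for each of the 7 genes over all tubule-gated cells in the 4 comparisons between libraries, with 95% counting intervals as bars, grey lines at 2-fold and a red dashed line at the median of all tested genes. The open circle marks Havcr1 in reversed against sham, which did not pass the filter on low counts; Lcn2, Clu and Havcr1 lie farthest from 0 on day 2 and after reversal.

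Lcn2 lay in the distal nephron, with little of it in proximal tubule. In sham kidney the 3410 tubule cells held 43 Lcn2 UMIs, all the Lcn2 of the library, and 34 of them (79.1%) lay in principal cells of the collecting duct, at 138 CPM (95.7 to 193). A single principal cell carried 55.9% of those 34. In the thick ascending limb 3 UMIs gave 4.65 CPM (0.959 to 13.6), and in proximal tubule 4 UMIs over 3040 cells gave 0.415 CPM (0.113 to 1.06). Distal convoluted tubule and intercalated cells had no UMI, which allows up to 22.5 and 8.67 CPM (3 UMIs).

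On day 2 the whole distal nephron carried it. The level was 5216 CPM (4995 to 5444) in 45 distal convoluted cells, 4469 (4323 to 4618) in 77 principal cells, 3442 (3364 to 3520) in 254 thick ascending limb cells, 1363 (1261 to 1471) in 54 thin limb cells and 480 (444 to 517) in 136 intercalated cells. None of these intervals overlapped its neighbour, but 42 of the 45 distal convoluted cells sat in cluster 4, which by its markers is named thick ascending limb, and with cells named by cluster principal cells led (4405 CPM). The thick ascending limb was 740-fold above its sham level, with an interval of 253 to 3590 because sham had 3 UMIs there. The distal convoluted tubule was at least 231-fold higher and intercalated cells at least 55.3-fold higher, both against the 3-UMI floor in sham, while principal cells, which started higher, were 32.4-fold higher (23.1 to 46.8). The thick ascending limb held 44.8% of all Lcn2 UMIs of the library, and principal cells 21.3%.

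Proximal tubule cells as a whole could not be told from the background as seen in T and NK cells. On day 2 they had 105 CPM of Lcn2 (94.6 to 117), 254-fold their 4 sham UMIs (98.3 to 937), but T and NK cells, which serve here as cells that should lack tubule RNA, had 110 CPM (83.9 to 141) in the same library. The log2 ratio of proximal tubule over T and NK cells was -0.06 (-0.45 to 0.35) on day 2, 0.36 (-0.11 to 0.84) on day 7 and 0.17 (-0.50 to 0.90) after reversal. In T and NK cells of day 2 a single cell held 31.1% of the UMIs. The S3 side of the proximal gate, named for the late, straight part, stood above T and NK cells on day 2 by level, at 235 CPM (179 to 304) in 45 cells. The intervals of the shares at 1000 UMIs overlapped (22.2%, 11.2 to 37.1, beside 6.11%, 2.67 to 11.7). On day 7 the S3 side had 41.9 CPM. Endothelium overlapped proximal tubule on day 2, at 92.4 CPM (71.6 to 117). Mononuclear phagocytes, at 82.0 CPM (74.7 to 89.7), lay below proximal tubule, with intervals that did not overlap. Neutrophils, which store lipocalin-2 in their granules, were above all of these. They had 898 CPM (754 to 1060) in 28 cells on day 2 and 279 in 70 cells on day 7, with 41.3% of the day 2 UMIs in 1 cell.

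By day 7 the order had changed within the distal nephron. Thick ascending limb led at 2424 CPM (2343 to 2506), and the next in order, distal convoluted tubule at 1922 (1823 to 2024) and principal cells at 1816 (1713 to 1924), overlapped each other. Thin limb followed at 1338 CPM and connecting tubule at 990, then intercalated cells at 134. The log2 ratios to day 2 ran from -0.03 (-0.24 to 0.18) in thin limb through -0.51 (-0.56 to -0.45) in thick ascending limb to -1.83 (-2.08 to -1.58) in intercalated cells. The 50 cells that had general epithelial markers but scored under the cut for every segment had 2527 CPM, with 34.7% of it in 1 cell. Of these cells 26 sat in cluster 4.

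After reversal the segments differed in how much Lcn2 remained. Principal cells had 1801 CPM (1674 to 1935), a log2 ratio to day 7 of -0.01 (-0.15 to 0.12), and were still 13.0-fold above sham (9.25 to 19.0). Thick ascending limb had 752 CPM (705 to 800), a log2 ratio of -1.69 (-1.79 to -1.59), and remained 162-fold above its 3 sham UMIs (55.1 to 785). Distal convoluted tubule and connecting tubule overlapped at 565 and 532 CPM. Intercalated cells stood at 226 CPM, above their day 7 level by 0.75 (0.46 to 1.04) on the log2 scale, but fewer of them showed Lcn2, 4.63% beside 13.4% at 1000 UMIs and 24.1% beside 44.0% unthinned. Single cells weighed on these sums: 21.2% of the UMIs of principal cells, 46.3% of those of distal convoluted cells and 31.0% of those of intercalated cells lay in 1 cell each.

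**Figure D2:**
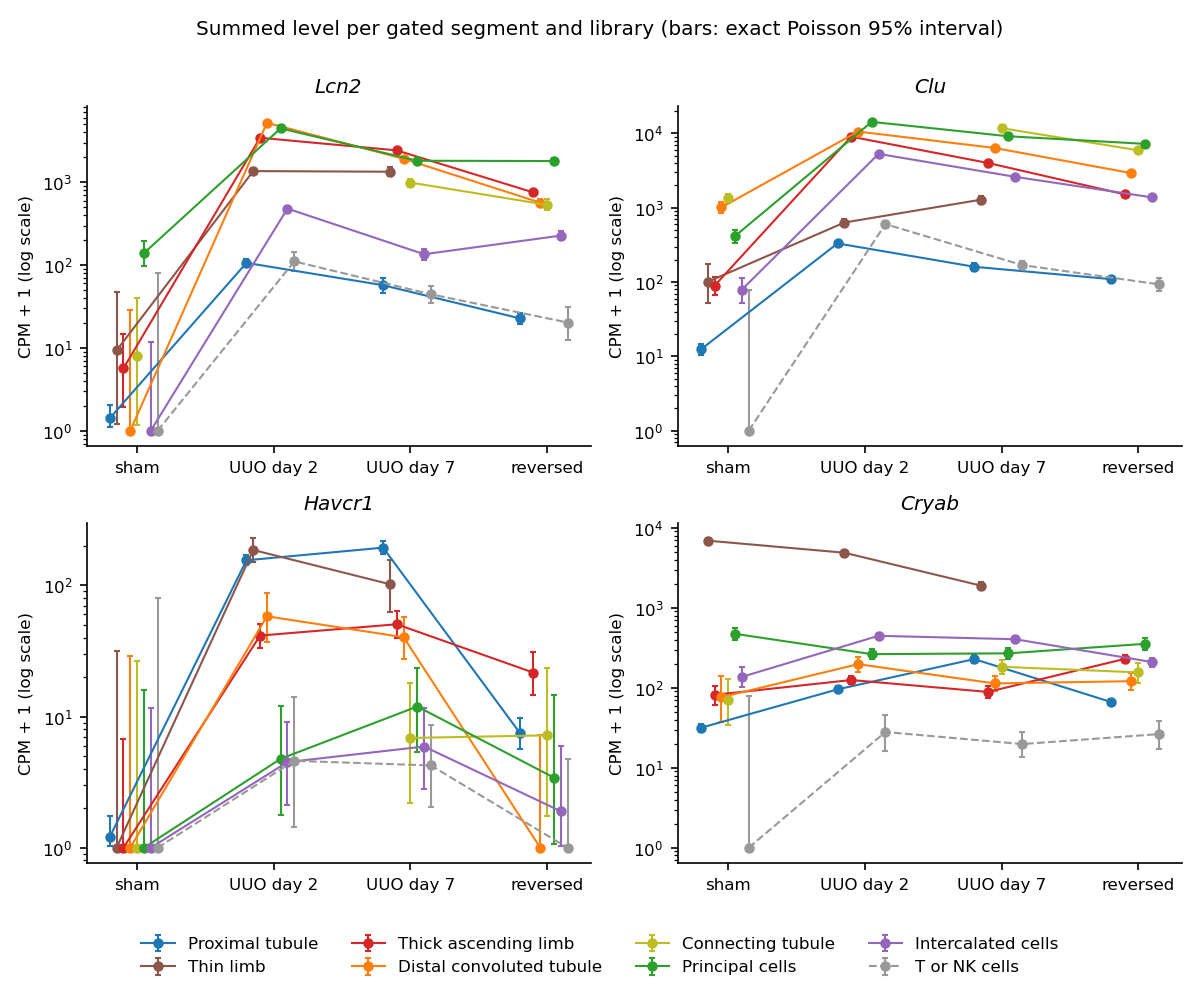
Level of Lcn2, Clu, Havcr1 and Cryab as CPM + 1 on a log axis in each gated tubule segment and in T or NK cells (grey, dashed) in the 4 libraries, with exact Poisson 95% intervals as bars; segments with under 20 cells are left out. Lcn2 and Clu in proximal tubule run beside or below the T or NK line on day 2 and beside it on day 7, Havcr1 stands out in proximal tubule and thin limb, and Cryab lies highest in thin limb.

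In thick ascending limb and principal cells the share of cells with the transcript was also highest on day 2 and lower at the later points. With every cell thinned to 1000 UMIs, which left out no cell, Lcn2 was seen in 0 of 170 thick ascending limb cells in sham (with an exact binomial upper bound of 2.15%), 80.7% of cells on day 2 (75.3 to 85.4), 69.2% on day 7 and 30.8% after reversal (24.4 to 37.8). In principal cells the shares were 10.9%, 75.3%, 50.6% (39.8 to 61.3) and 41.7% (27.6 to 56.8), and those of day 7 and reversal overlapped. In T and NK cells they were 0%, 6.11%, 4.62% and 2.26%, and in proximal tubule Lcn2 was seen in 1 of 3040, 67 of 610, 11 of 221 and 17 of 1111 cells. Without thinning, at medians of 8188 UMIs in thick ascending limb and 3529 in T and NK cells, the day 2 shares were 97.2% and 26.0%.

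The reversed thick ascending limb was not a uniform population. Cells gated as thick ascending limb fell mainly in 2 clusters: cluster 12, which held 165 of the 170 sham cells and is led by Egf, Slc12a1 and Tmem207, and cluster 4, which held 146 of 254 cells on day 2, 113 of 146 on day 7 and 88 of 195 after reversal, and is led by Il1f6, Ccl20, Sprr1a and Mmp7. In cluster 12 the Lcn2 level was 4.75, 1803, 765 and 83.7 CPM from sham to reversal. In cluster 4 it stood at 4386, 2750 and 1354 CPM at the last 3 points. After reversal 898 of the 985 thick ascending limb UMIs came from the 88 cluster 4 cells and 52 from the 104 cluster 12 cells. Distal convoluted cells also sat in different clusters, with 34 of 38 sham and 50 of 86 reversed cells in cluster 28 but 42 of 45 and 93 of 98 in cluster 4 on days 2 and 7. The clusters were made without the 7 genes, but from the same cells, so a difference between clusters is a description.

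**Figure D3:**
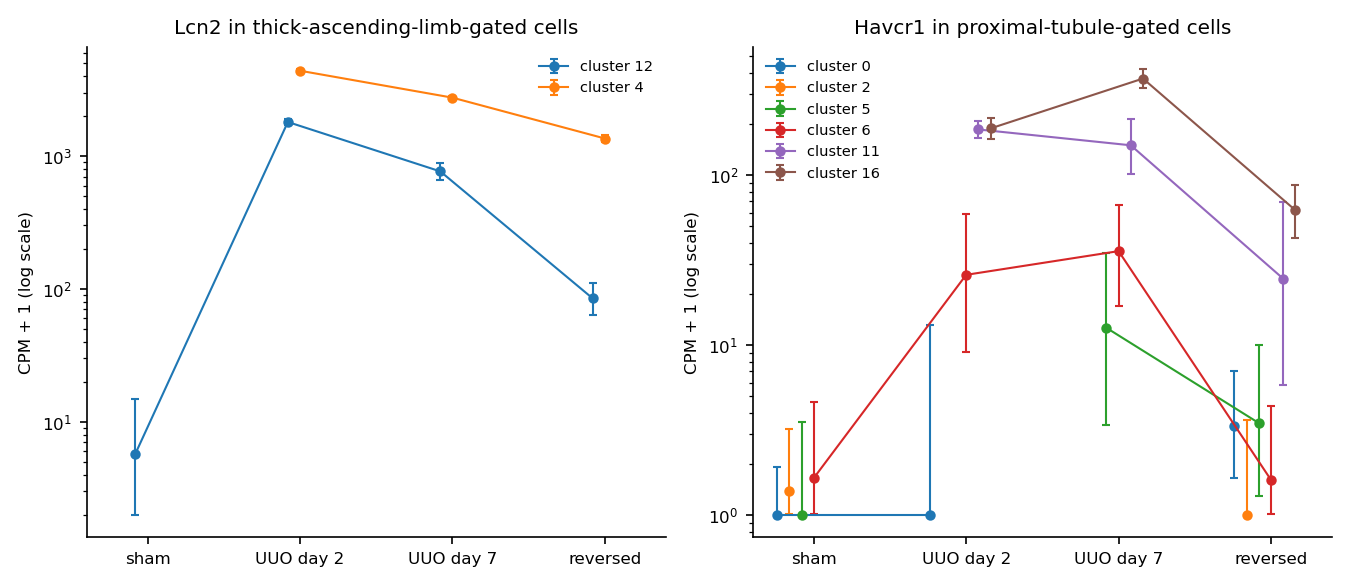
Lcn2 in thick ascending limb cells (left) and Havcr1 in proximal tubule cells (right), as CPM + 1 on a log axis, split by the cluster that holds the cells in each of the 4 libraries, with exact Poisson 95% intervals; clusters with under 20 such cells in a library are left out. After reversal Lcn2 is at 83.7 CPM in cluster 12 and 1354 in cluster 4, and Havcr1 at 2.36 CPM or less in clusters 0, 2 and 6 and 61.1 in cluster 16.

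The endocytic receptors for lipocalin-2 went the other way over the tubule. Of the list of its receptors and partner (Slc22a17, Lrp2, Cubn and Mmp9), 3 passed the filter on low counts on day 2. Lrp2, which encodes megalin, had a log2 ratio to sham of -1.59 (-1.67 to -1.52) and Cubn, which encodes cubilin, -1.29 (-1.46 to -1.11), and after reversal both were above day 7, by 1.75 and 1.51. Both are proximal genes and markers of the gate, and within proximal tubule cells the day 2 ratios were -0.43 for Lrp2 and -0.15 for Cubn, short of 2-fold. Slc22a17, a lipocalin-2 receptor of the distal nephron, had 0.21 (-0.11 to 0.53) on day 2.

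Clu followed the distal pattern of Lcn2 and started from a higher base. In sham it was in the connecting tubule at 1331 CPM (1149 to 1533) and the distal convoluted tubule at 1007 (844 to 1193), which overlapped, then in principal cells at 414 (338 to 503). Thin limb, thick ascending limb and intercalated cells had 99.8, 88.3 and 78.0 CPM and overlapped. Endothelium had 213 CPM, and proximal tubule 11.4.

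On day 2, with the 17 connecting tubule cells (19164 CPM) too few to compare, principal cells led at 14282 CPM, followed by distal convoluted tubule at 10583, thick ascending limb at 9024, intercalated cells at 5297 and thin limb at 631. The thick ascending limb was 102-fold above sham (78.8 to 135), intercalated cells 67.9-fold (46.6 to 103), principal cells 34.5-fold (28.4 to 42.3) and distal convoluted tubule, which started high, 10.5-fold (8.85 to 12.6). Within intercalated cells, those on the type B side, which secrete base, had 6499 CPM and those on the type A side, which secrete acid, 2853. Proximal tubule had 330 CPM, below the 601 CPM (538 to 669) of T and NK cells, of whose UMIs 47.3% lay in 1 cell. The thin limb level (562 to 706) overlapped that of T and NK cells. On day 7 proximal tubule and T and NK cells had 160 and 168 CPM, and after reversal 108 and 92.2.

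By day 7 the Clu level of the thick ascending limb was lower than on day 2, at 4002 CPM, a log2 ratio of -1.17 (-1.22 to -1.13), while that of the thin limb was higher, at 1282 CPM, a ratio of 1.02 (0.78 to 1.27) over 54 and 23 cells. Connecting tubule had 11755 CPM and principal cells 9139. After reversal principal cells kept 7228 CPM, -0.34 (-0.40 to -0.27) from day 7 and 17.4-fold above sham (14.3 to 21.5), and the thick ascending limb had 1514 CPM, -1.40 from day 7 and 17.1-fold above sham. Distal convoluted tubule had 2916 CPM, 2.90-fold above sham (2.43 to 3.48), but not higher (a log2 ratio of -0.11) when cells were named by cluster instead of one by one. In the reversed thick ascending limb cluster 4 had 2749 CPM of Clu and cluster 12 had 200.

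In the reversed thick ascending limb Clu was more frequent in cells with Lcn2 than in the others. At 1000 UMIs per cell it was seen in 63.3% of the 60 reversed thick ascending limb cells with Lcn2 and in 29.6% of the others. On day 2 nearly all had it, 91.7% and 85.7%. Over the 50 sums of a class and library with at least 20 cells, the Pearson correlation of log2(CPM + 1) between Lcn2 and Clu was 0.81, above the highest of Lcn2 with any of the 8079 genes compared. Among the genes most like Lcn2 were Aoc1 (0.78), which encodes a diamine oxidase, and Spp1 (0.76), osteopontin. Among those most like Clu were Wfdc2 (0.84) and Cldn3 (0.81), a tight junction claudin. These sums share 4 libraries and their free RNA, so the correlations are descriptions.

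Of the named segments, Havcr1 was highest in proximal tubule and thin limb on day 2 and in proximal tubule on day 7. Sham tubule held 2 Havcr1 UMIs in 3410 cells, both in proximal tubule, at 0.207 CPM (0.0251 to 0.749), and no other segment had any. On day 2 proximal tubule had 154 CPM (141 to 168) and thin limb 185 (149 to 227), which overlapped, and both were far above the 3.60 CPM of T and NK cells. Distal convoluted tubule had 57.1 and thick ascending limb 40.4 CPM. Principal and intercalated cells, at 3.76 and 3.50 CPM, were at the level of T and NK cells. The proximal level was 744-fold above sham, with an interval of 205 to 6159 since sham had 2 UMIs.

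Within the proximal gate the S3 side, named for the late, straight part, led on day 2. A cell's side is only the higher of its S1 and S3 marker scores. The S1 list holds Slc34a1, whose proximal level was lower on day 2 than in sham. Whether this moved cells to the S3 side was not tested. Of the 45 cells on the S3 side on day 2, 6 scored near the cut of the gate. Cells on the S3 side of the gate had 701 CPM (601 to 814) in 45 cells, and cells on the S1 side 108 CPM (97.1 to 121) in 560. At 1000 UMIs per cell, 31.1% and 6.43% of them showed Havcr1. On day 7 the sides had 219 and 179 CPM and overlapped, the S3 side at a log2 ratio to day 2 of -1.68 (-2.05 to -1.31) and the S1 side at 0.72 (0.45 to 0.98). The S3 side sat in different clusters at the 2 points, most often in cluster 11 on day 2 (28 of 45 cells) and in cluster 5 on day 7 (33 of 70), and proximal cells of cluster 5 had 11.6 CPM on day 7. Proximal tubule as a whole had 193 CPM on day 7 (171 to 216), but from 221 cells, so that it held 28.9% of the library's Havcr1 UMIs where it had held 63.5% on day 2.

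The rest of the day 7 signal was divided between small groups and scattered cells. The 50 epithelial cells of no segment had 496 CPM (428 to 573), from 12 of them with 35.3% in 1 cell, and 18 cells gated by Ncam1, Wt1 and Cldn1, genes of the parietal lining of the glomerulus, had 679 CPM, from 6 cells with 49.0% in 1. Thick ascending limb had 49.5 and distal convoluted tubule 39.2 CPM. Phagocytes held 155 UMIs over 125 cells, 15.7% of the library's Havcr1. At 9.34 CPM (7.92 to 10.9) they were above T and NK cells at 3.24 by 1.29 (0.24 to 2.36) on the log2 scale. They overlapped endothelium at 7.39 CPM (4.13 to 12.2), fibroblasts or mural cells at 5.21 (1.42 to 13.3) and neutrophils at 17.1 (6.28 to 37.2).

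After reversal Havcr1 stood farthest below day 7 of the 7 members, at a log2 ratio of -3.37 (-3.68 to -3.07) over all tubule cells. Proximal tubule had 6.51 CPM (4.67 to 8.83) in 1111 cells, a log2 ratio to day 7 of -4.69 (-5.13 to -4.26), beside 0 UMIs in T and NK cells, which allows up to 3.04 CPM. Of its 41 UMIs 48.8% lay in 1 cell, and 31 lay in the 58 proximal cells of cluster 16, at 61.1 CPM (41.5 to 86.8). Clusters 0, 2, 5 and 6, with 356, 276, 155 and 231 proximal cells, had 4, 0, 2 and 1 UMIs. Thick ascending limb then stood above it at 20.6 CPM from 27 UMIs, 33.3% of them in 1 cell, and the gate of Ncam1, Wt1 and Cldn1 had 26.2 CPM, with 74.1% in 1 cell and 23.5% of the library's Havcr1 UMIs. Clusters 16 and 11 held most of the proximal cells of the obstructed kidneys. Cluster 16 is led by Ubd, Havcr1 itself and Ptgds, and cluster 11 by the fibrinogen genes Fgb, Fgg and Fga, then Havcr1. Cluster 11 had 359 of 610 on day 2, at 185 CPM of Havcr1, and cluster 16 had 70 of 221 on day 7, at 369 CPM. In cluster 0, the main proximal cluster of sham and reversed kidney, 73 cells were found on day 2, with no Havcr1 UMI.

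The genes most like Havcr1 were Serpina10 (0.81), a protease inhibitor, and the fibrinogen chains Fgg (0.77) and Fga (0.76). Of its gene family (Havcr2, Timd2 and Timd4), Timd2 alone passed the filter, and its log2 ratio on day 2 was -0.19 (-0.35 to -0.03).

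Cryab stood highest in the thin limb of the segments compared in sham and on days 2 and 7. In sham, 25 thin limb cells had 6904 CPM (6443 to 7390), with Cryab seen in all 25 at 1000 UMIs, and held 45.0% of the library's Cryab UMIs. A single cell held 33.9% of the thin limb's. The next segment, principal cells, had 471 CPM (389 to 565), then intercalated cells 136, thick ascending limb 80.6 and proximal tubule 30.6. Few cells carried the last values: the 165 of 170 thick ascending limb cells in cluster 12 held 14 of its 52 UMIs (22.2 CPM), and proximal cells of clusters 0, 2, 5 and 6 stood at 7.16 to 12.4 CPM, with 21.4% of the proximal UMIs in 1 cell. On day 2 the thin limb had 4876 CPM in 54 cells and on day 7 1888 in 23, log2 ratios of -0.50 (-0.62 to -0.39) to sham and -1.37 (-1.53 to -1.21) to day 2. The thin limb held 50.5% of the Cryab UMIs on day 2 and 12.8% on day 7, when intercalated cells held 16.9% and phagocytes 14.1%. After reversal only 15 cells were gated as thin limb, with 12.6% of the UMIs, too few to compare, and their level was 3700 CPM. The epithelial cells of no segment numbered 16, 29, 50 and 46 from sham to reversal, and had 3631, 2539, 480 and 1280 CPM of Cryab. The 16 sham cells, too few to compare, all sat in cluster 20, which by its markers is named thin limb.

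In intercalated cells and proximal tubule Cryab was higher in the obstructed kidney than in sham. Intercalated cells went from 136 CPM in sham to 445 on day 2 and 403 on day 7, with the type A side at 722 and 636. Proximal tubule had 94.5 CPM on day 2, 227 on day 7 (204 to 253) and 65.4 after reversal, log2 ratios of 1.60, 1.26 and -1.78 from each point to the next. On the S3 side of day 2 it had 288 CPM, beside 11.8 in sham. With only cells of at most 20% mitochondrial UMIs, the ratio in proximal tubule was -1.13 on day 2 and -0.38 for reversed against sham, so both directions depend on that filter. In principal cells the level was lower than in sham, at 262 and 268 CPM on days 2 and 7, while the share with Cryab at 1000 UMIs was 6.52% in sham and 23.4% and 13.5% later, with 23.3% of the sham UMIs in 1 cell. In endothelium the level was lower at 38.6 and 41.9 beside 214 CPM, of which 1 cell held 38.9%.

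After reversal the thin limb still led when cells were named by cluster, at 2641 CPM of Cryab. Other cells held Cryab as well. In thick ascending limb it stood at 228 CPM (203 to 256), a log2 ratio to day 7 of 1.37 (1.07 to 1.68), with 388 CPM in cluster 4 and 40.2 in cluster 12; against sham, where cluster 12 had 22.2 CPM, the ratio of the whole limb was 1.49, and -0.57 with the stricter mitochondrial limit. The 58 proximal cells of cluster 16 had 392 CPM. The 91 cells of the Ncam1, Wt1 and Cldn1 gate had 1055 CPM (993 to 1120) and held 29.9% of all Cryab UMIs of the reversed library. The genes most like Cryab were Smtn (0.86), smoothelin, Dag1 (0.85), dystroglycan, and Txnrd3 (0.84), a thioredoxin reductase. Of the other small heat-shock genes, Hspb1 was higher on day 2 (3.74, 3.43 to 4.06), and lower after reversal than on day 7 (-1.21), though by less than 2-fold with TMM factors. Against sham Hspb1 was still higher after reversal, at 3.76.

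**Figure D4:**
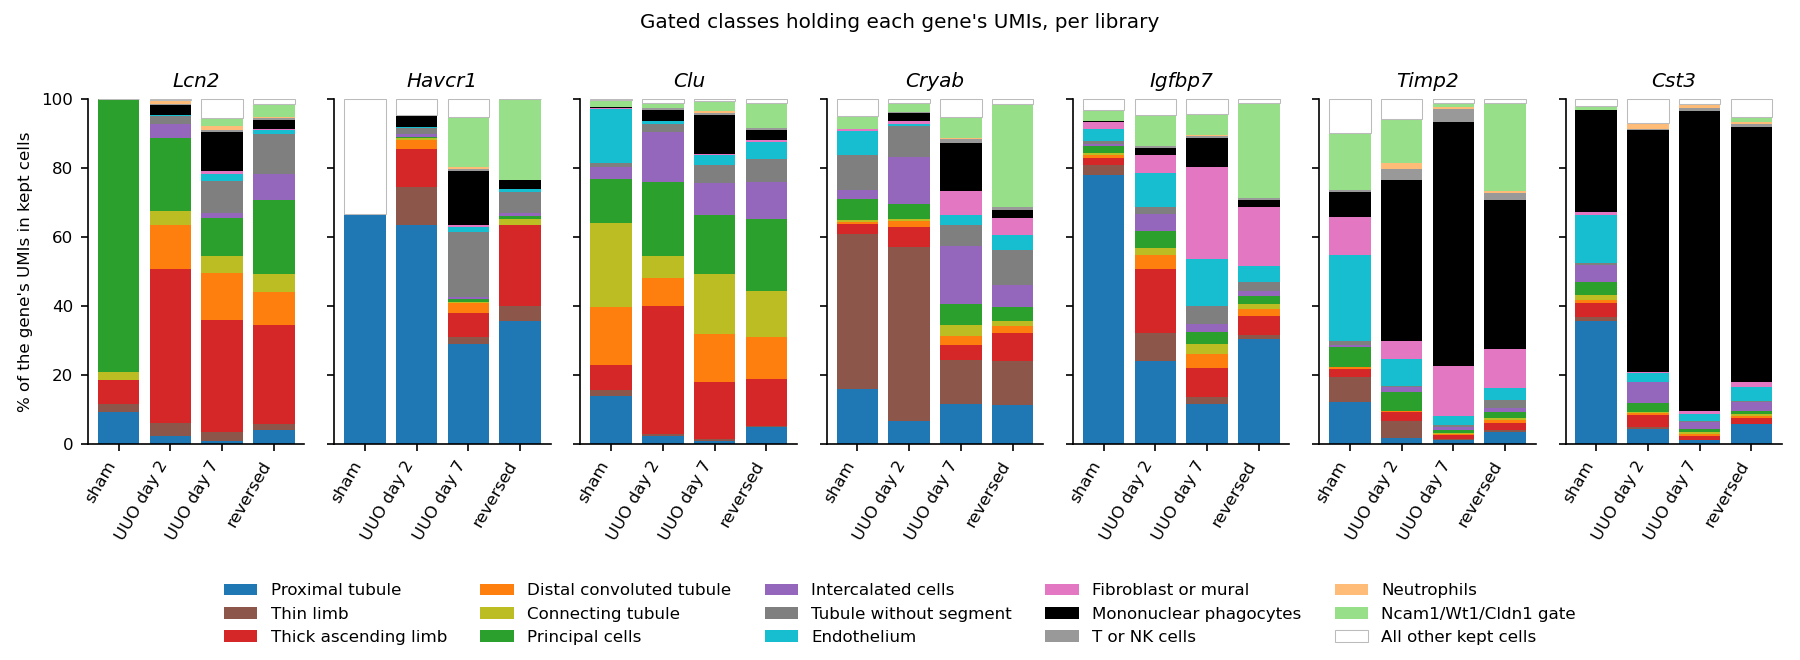
Percent of each gene's UMIs in kept cells that lie in each gated class, per library, as stacked bars that add to 100. Lcn2, Havcr1 and Clu lie mainly in tubule classes, with thick ascending limb holding 44.8% of Lcn2 on day 2, while phagocytes hold 86.9% of Cst3 and 71.0% of Timp2 on day 7.

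Timp2 lay mostly outside the tubule in every library, and Cst3 did so from day 2 on. Tubule cells held 29.7% of Timp2 UMIs in sham and 16.6%, 5.27% and 12.5% later. They held 52.4% of Cst3 UMIs in sham and 18.0%, 6.55% and 12.3% later. Mononuclear phagocytes, which went from 59 kept cells in sham to 511, 2360 and 595, held 7.43%, 46.7%, 71.0% and 43.3% of Timp2. In sham endothelium held 25.1% of it, and after reversal the Ncam1, Wt1 and Cldn1 gate held 25.7%.

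Timp2 was highest per cell in stromal cells, at 653 CPM (597 to 713) in 82 fibroblasts or mural cells on day 7 and 449 in 78 after reversal, and in the 91 cells of the Ncam1, Wt1 and Cldn1 gate after reversal, at 578 (532 to 626). Phagocytes had 57.7, 58.1, 149 and 211 CPM. In the tubule up to day 7 the thin limb, with 13, 36 and 17 UMIs, had 108, 74.0 and 85.8 CPM and principal cells 40.6, 48.9 and 45.3, with intervals that overlapped in each library. After reversal principal cells had 102 CPM (73.3 to 137), a log2 ratio to day 7 of 1.15 (0.44 to 1.87). Thick ascending limb had 6.20, 8.26, 24.1 and 34.3 CPM and proximal tubule 2.18, 3.30, 21.6 and 12.4.

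These tubule levels were low beside other cells. On days 2 and 7 T and NK cells had 43.2 and 84.2 CPM of Timp2, above proximal tubule, thick ascending limb, distal convoluted tubule and intercalated cells. With free RNA subtracted, the ratio of reversed against sham in proximal tubule turned from 2.08 to -0.69. Whether T and NK cells express Timp2 themselves was not tested. Of the other genes of its list (Timp1, Timp3, Timp4, Mmp2 and Mmp14), Timp1 was higher on day 2 (4.28, 3.80 to 4.41), from 1 sham UMI, and Timp3 lower (-1.14). After reversal Timp1 was lower and Timp3 higher than on day 7, while Timp1 was still at least 2-fold above sham. Mmp14, the protease that binds the inhibitor at the cell surface, was higher on day 7 than on day 2 (1.97, 1.57 to 2.38).

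Igfbp7, measured beside Timp2 in urine, was spread over all segments and stayed within 2-fold over the tubule. Over all tubule cells it stood at 1548, 1390, 1347 and 1432 CPM, and no comparison of these reached 2-fold. The thin limb led in the first 3 libraries at 4509, 3032 and 2484 CPM, though with TMM factors proximal tubule led in sham (3341 CPM). Proximal tubule, which held 78.0% of its UMIs in sham, had 1616, 1297, 1720 and 1540 CPM and principal cells 1625, 1122, 1178 and 1798. All of these were far above T and NK cells, at 91.9 to 196 CPM.

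Apart from this lower level in the thin limb, 2 of the segments compared were at least 2-fold higher on day 2, calls that end without mitochondrial UMIs (0.89 in thick ascending limb and 0.85 in intercalated cells). Thick ascending limb had 691 CPM in sham and 1549 on day 2, a log2 ratio of 1.16 (1.02 to 1.31), and had 1344 after reversal, with 2030 in its cluster 4 cells and 555 (498 to 617) in those of cluster 12, which had 611 (552 to 675) in sham. Intercalated cells had 304 and 632 CPM, a ratio of 1.06 (0.76 to 1.36). Some classes outside the tubule stood above the segments compared. Fibroblasts and mural cells had 7744 CPM on day 7 and 9092 after reversal, and the 91 cells of the Ncam1, Wt1 and Cldn1 gate 8515. Tubule cells held 87.8% of Igfbp7 UMIs in sham and 40.0% on day 7. Of the other 8 genes of its list 3 passed the filter on low counts for day 2 against sham, and 2 of them, Igfbp4 and Igfbp5, were at least 2-fold lower (-1.64 and -1.06), beside 4.91% of genes, or all 3, with Igf1r, under TMM factors. After reversal 5 genes of the list were tested against day 7. Igfbp4 and Igfbp5 were at least 2-fold higher (1.37 and 1.61), beside 4.43% of genes. Igf1 was at least 2-fold lower, beside 5.91%, but neither with TMM factors nor without mitochondrial UMIs.

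Cst3 was a phagocyte transcript first. Phagocytes had 8708, 4686, 6449 and 9031 CPM and held 29.5%, 70.2%, 86.9% and 74.1% of its UMIs, and neutrophils had 2751 to 3467 CPM where they were found. In the tubule, intercalated cells led from day 2 on, at 1631, 2152 and 1310 CPM after 974 in sham. After reversal this lead overlapped principal cells, and by the mean of per-cell CPM connecting tubule led (1298). The higher level lay on their type B side, at 1235, 2221, 3281 and 1801 CPM, beside 589, 1071 and 858 on the type A side at the later points. Intercalated cells as a whole stood above T and NK cells by 2.35, 1.51 and 1.38 on the log2 scale at those points. Principal cells hardly differed between libraries, at 1024, 1215, 1251 and 1186 CPM.

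In proximal tubule Cst3 read 246, 487, 802 and 520 CPM, and T and NK cells read 128, 318, 756 and 502. The log2 ratio of the first to the second was 0.09 (-0.03 to 0.20) on day 7 and 0.05 (-0.09 to 0.19) after reversal, so at these points the proximal level could not be told from the background; on day 2 it was 0.61 higher (0.39 to 0.84). Thick ascending limb went from 415 to 592, 1011 and 694 CPM. Among Cst3's list of family members and target proteases, 5 genes passed the filter on low counts. Of these, 2 were at least 2-fold higher on day 2, beside 19.1% of all tested genes. They were Cstb, cystatin B (1.23), and Ctss, the phagocyte cathepsin (1.85), Cstb neither with TMM factors nor without mitochondrial UMIs. Against day 2, Ctss alone of the 5 was at least 2-fold higher on day 7 (2.44), beside 5.9% of genes. The genes most like Cst3 were Psap (0.90) and Grn (0.85), both of lysosomes. For Igfbp7 they were Gnai1 (0.87), Tead1 (0.87) and Hoxa10 (0.86), and for Timp2 Pdlim4 (0.75), Lrp1 (0.74) and Rrbp1 (0.73).

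**Figure D5:**
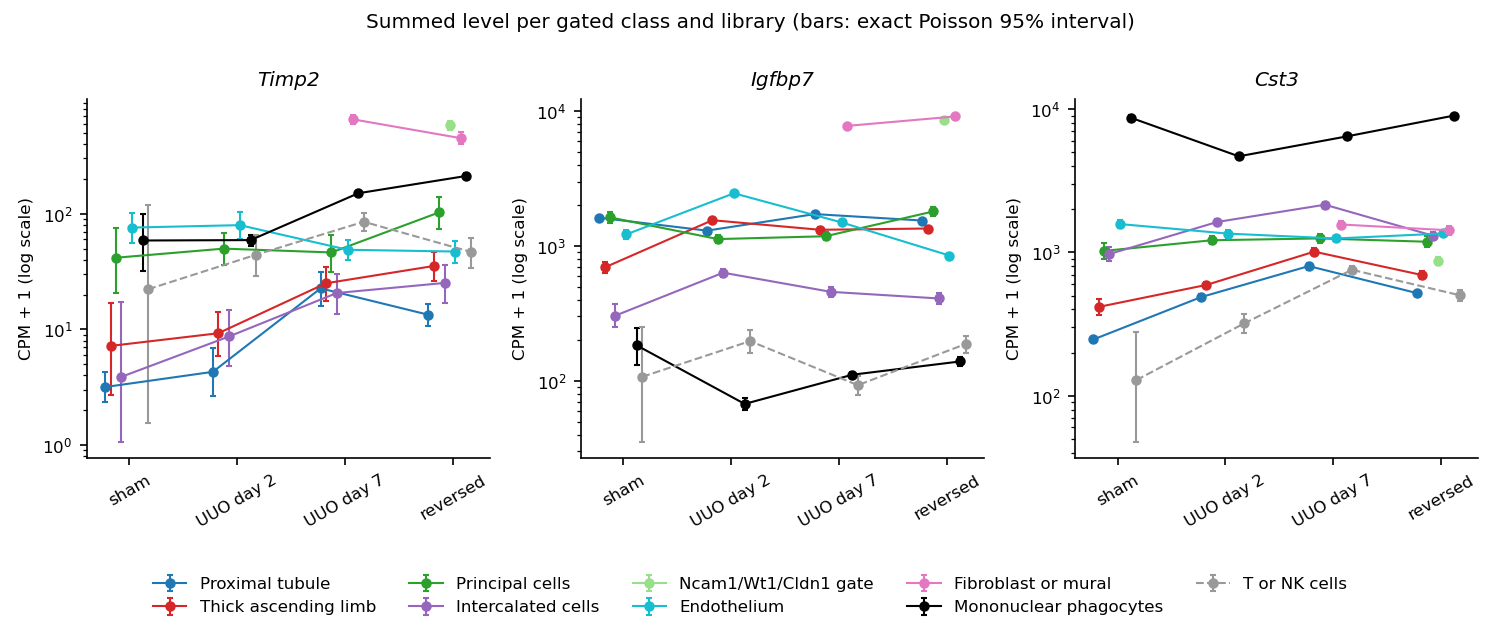
Level of Timp2, Igfbp7 and Cst3 as CPM + 1 on a log axis in tubule segments and in other gated classes in the 4 libraries, with exact Poisson 95% intervals; classes with under 20 cells are left out. Stromal cells and the Ncam1, Wt1 and Cldn1 gate lie highest for Timp2 and Igfbp7, phagocytes for Cst3, and T or NK cells (dashed) lie above proximal tubule for Timp2.

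A list of 35 other genes used as kidney injury markers, chosen from general knowledge with results of these data known, moved in the same direction as Lcn2, Havcr1 and Clu for the most part. Over all tubule cells 20 of the 26 that passed the filter had at least 2-fold higher levels on day 2, beside 19.1% of all tested genes, and 3 had lower ones (Mdk, Egf and Calb1), beside 4.91%, and with TMM factors 20 and 4. Umod, itself a gate marker, is among the 20 at 1.73, while within the thick ascending limb, which went from 170 of 3410 to 254 of 1222 tubule cells, its ratio was -0.29 (-0.33 to -0.26). The list's median log2 ratio was 3.04, beside 0.47 over all genes. Spp1, osteopontin, had 5.41 (5.39 to 5.44), C3, the central complement protein, 5.54 (5.11 to 5.96), Krt18, an epithelial keratin, 3.68, and Sox9, a transcription factor of repairing tubule cells, 3.57. Between day 2 and day 7 the list divided: 4 of 28 were higher, beside 5.9% of genes, among them Vcam1 by 2.97 (2.71 to 3.24), and the 3 fibrinogen chains were lower, beside 1.13%. With TMM factors 2 were higher and 4 lower. After reversal 17 of 28 were at least 2-fold lower than on day 7, beside 5.91% of genes, or 14 with TMM factors, and the 3 that had been low on day 2 were higher, with Egf, a growth factor of the distal tubule, at 2.51 (2.40 to 2.62). Against sham 13 of 21 were still higher after reversal, beside 15.9% of genes, and none lower, or 11 and 1 with TMM factors.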

How the data were processed

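Droplet (10x 3′) libraries of 4 mouse kidney preparations were analysed, each pooled from 3 mice. The values are whole-number UMI counts per gene and cell, deposited by the authors as 1 matrix per library and not normalized. Per the submitters' processing notes, Cell Ranger, STAR and the builds GRCm38 and mm10 were used, with no versions or roles; per the labels' protocols sequencing was on a NextSeq 550. How cells were called is not given in the sources used here. Members and lists were chosen with earlier results of these data known.

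Barcodes with under 200 genes or over 50% mitochondrial UMIs were dropped, and cells with the highest Scrublet doublet scores were removed, at 0.8% per 1000 cells, since the automatic threshold called 0, 8, 2 and 25 cells. This left 3746, 2159, 4287 and 3140 of 5938, 2739, 4504 and 3695 barcodes, with 12366170, 16881645, 28601653 and 20035386 UMIs; 146 barcodes occurred in more than 1 library. Each cell took the best of 16 marker lists at a score of at least 0.15 with at least 2 markers seen, and 149 cells stayed ungated. Clusters came from scanpy 1.11.5 and leidenalg 0.10.2 (2000 variable genes, 30 components, 15 neighbours, resolution 1) without the 7 genes.

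UMIs were summed per class and library. Intervals at 95% are exact Poisson for sums, Clopper-Pearson for shares and conditional binomial for ratios, and cover counting error only. Ratios are log2 of CPM + 1, called at 2-fold among genes with at least 30 summed UMIs and 10 CPM in a group; classes under 20 cells were not compared. With 1 library a point there is no test. The step was tested on simulated data. TMM factors came from edgeR 4.0.16 in R 4.3.3, with no edgeR test run. The named genes were the 7 members, the genes of the fixed lists and the 3 genes most like each member, except that 1 of these is not reported here. Promoters came from RefSeq on GRCm38.p6 and positions from the GENCODE annotation of GRCm38, which held 98.8% of the gene identifiers. Alternatives covered scaling, filters, gating, free RNA, the pseudocount and the fold.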

Additional observations from a re-analysis of the deposited data

Results flagged for a closer look

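In 3 comparisons a member was at least 2-fold higher in one segment and at least 2-fold lower in another between the same libraries. Each library is 1 pool, so the differences between segments were not tested.

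Clu on day 7 against day 2 had a log2 ratio of 1.02 in thin limb cells and -1.17 in thick ascending limb cells; the first was under 2-fold with TMM factors (0.84), and both were with cells named by cluster. The thin limb ratio rests on 54 and 23 cells, and its day 7 level of 1282 CPM was still below the 4002 CPM of the thick ascending limb. On day 2 the thin limb level of 631 CPM (562 to 706) overlapped that of T and NK cells (601 CPM, 538 to 669).

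Cryab on day 7 against day 2 had 1.26 in proximal tubule and -1.37 in thin limb, which brought the levels from 94.5 and 4876 CPM to 227 and 1888 CPM; the first ratio was under 2-fold with TMM factors (0.88) and by the mean of per-cell CPM (0.83). Cryab after reversal against day 7 had 1.37 in thick ascending limb (0.79 with cells named by cluster and 0.96 by the mean of per-cell CPM) and -1.78 in proximal tubule (-0.74 with the 20% mitochondrial limit). Thick ascending limb cells of cluster 4 had 388 CPM of Cryab after reversal and those of cluster 12 had 40.2, while the proximal cells of cluster 16, at 392 CPM, were above their day 7 level of 352 CPM, with intervals that overlap.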

How the results depend on the processing

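No paired analysis was possible because each group is 1 library. Limiting cells to at most 20% mitochondrial UMIs moved 4 of the 8 counts of members past 2-fold by over 1.5 times. It left 3 members at least 2-fold higher on day 2 than in sham, 0 higher and 1 lower on day 7 than on day 2, and 1 lower after reversal than in sham. It also turned the log2 ratios to sham of Cryab on day 2 (-0.54 over all tubule cells, -1.13 in proximal tubule), of Cryab after reversal (-0.38 in proximal tubule, -0.57 in thick ascending limb) and of Timp2 on day 2 (-0.59 over all tubule cells). Naming cells by cluster turned Clu in distal convoluted tubule, reversed against sham, to -0.11, and subtracting free RNA turned Timp2 in proximal tubule, reversed against sham, to -0.69. The call of Timp2 on day 7 against day 2 was lost (0 members higher) with TMM factors, CPM without mitochondrial UMIs, cluster names, free RNA subtracted, a pseudocount of 10 CPM and a 3-fold threshold, and 2 members were higher at 1.5-fold. On the lower side 1 member passed with TMM factors and 1 at 1.5-fold. The causes were not tested.

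Of 98 member ratios past 2-fold, all 98 kept their sign with TMM factors and without mitochondrial UMIs, and 88 and 89 stayed past 2-fold. With free RNA subtracted 96 kept their sign. Of those that could be computed, 75 of 78 kept it with cluster names and 62 of 67 with the 20% limit. The leading segment was kept in 24 of 28 pairs of member and library with TMM factors, 20 with cluster names and 22 with the 20% limit. Few cells limit thin limb, connecting tubule and distal convoluted tubule, and the 20 sham T and NK cells allow up to 63.8 CPM of Lcn2, so the sham background is poorly bounded.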

Other observations

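The urothelium gate held 1, 1, 2 and 3 cells in the order sham, day 2, day 7 and reversed, and it was singled out after its values were seen. Its 2 cells of day 7 carried 502 Lcn2 UMIs, 4.79% of all Lcn2 UMIs of that library, at 21038 CPM, and the single cell of day 2 had Clu at 20020 CPM with no Lcn2 UMI, which allows up to 337 CPM. With so few cells these are values of single cells, not of a cell type.

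Among 43 reversed cells that passed no gate, Cst3 stood at 13009 CPM, above the 9031 CPM of gated phagocytes in that library, and Lcn2 at 40.2 CPM.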
